A study of Homo sapiens with 12 samples.

Results

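The genes described here are the 77 nuclear genes that carry an MRPL or MRPS symbol, the names given to mitochondrial ribosomal proteins, out of 26499 genes counted. They were taken by symbol alone: 81 gene symbols begin with MRPL or MRPS and a digit, and 3 pseudogenes and 1 antisense RNA among them were set aside. Of the 77 members, 48 are MRPL genes, named for the large subunit, and 29 are MRPS genes, named for the small subunit. Counts and sums by subunit follow these names. Whether each protein is part of the particle, and in which subunit, was not checked. All 77 had enough reads to be tested, the lowest count in any library being 184 reads, for MRPS24.

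Mitochondria make the proteins encoded in their own small genome on a ribosome of their own, which differs from the cytosolic ribosome in having much less RNA and many more proteins. All of these proteins are encoded in the nucleus, translated in the cytosol and imported. Their genes are scattered over the genome, so that a working particle needs output from loci on most chromosomes at once. The particle translates core subunits of the respiratory chain and of ATP synthase. In melanoma cells, inhibition of mutant BRAF is known to favour mitochondrial respiration.

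RNA came from A375 and SKMel28, established human melanoma lines. A375 resistant and SKMel28 resistant cells had been kept in vemurafenib, an inhibitor of mutant BRAF, at 1 µmol/L. A375 sensitive and SKMel28 sensitive cells were the counterparts, for which the labels name no drug. All 4 groups were grown in DMEM with 10% serum, and each was read as 3 poly(A)-selected libraries, 12 in all. Resistance itself and exposure to vemurafenib cannot be told apart in this design, and the labels do not say whether the resistant cells are 1 clone. They also leave unsaid whether the 3 libraries of a group were separate cultures, so p-values reflect only how far these libraries spread, which may be technical.

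Each library held 28496518 to 37721363 reads assigned to genes, and members took 0.586% to 0.601% of them in A375 resistant, 0.577% to 0.582% in A375 sensitive, 0.477% to 0.503% in SKMel28 resistant and 0.545% to 0.553% in SKMel28 sensitive cells. Levels are CPM, in which read counts are divided by a library size adjusted with TMM, given as mean ± SD of 3 libraries, so they are relative to the other RNAs of the same library; in bulk RNA, fewer expressing cells and less RNA per cell cannot be told apart. Fold changes are on the log2 scale, resistant minus sensitive, from edgeR's quasi-likelihood test, with standard error, and a gene counted as called when its p, adjusted by Benjamini-Hochberg across the 15506 genes that could be tested, was under 0.05. As a check of the labels, all 7 melanocyte lineage genes examined were above 1 CPM in SKMel28 cells, where they summed to 10740 to 10894 CPM in resistant and 6812 to 7245 CPM in sensitive libraries. In A375 only MITF passed 1 CPM in resistant libraries and only MITF and SOX10 in sensitive libraries, with sums of 31.1 to 33.7 and 362 to 372 CPM, and the pigment genes MLANA, PMEL, TYR, DCT and TYRP1 were below 1 CPM in both. Leukocyte, endothelial and erythroid markers were near 0 throughout, with no list above 9.41 CPM in sum. The 4 epithelial genes summed to 1256 to 1351 CPM in resistant and 1014 to 1070 CPM in sensitive A375 libraries, mostly KRT8 and KRT18, and to 17.4 to 20.8 CPM in resistant and 56.3 to 65.7 CPM in sensitive SKMel28 libraries. In SKMel28, KRT18 averaged 3.27 CPM in resistant and 48.4 CPM in sensitive cells, and CDH1 15.7 and 10.2 CPM. CDH1 was below 1 CPM in A375, and EPCAM in every group. The epithelial sum moved with resistance in both lines, as did the melanocyte sum, and the part of either in the members' changes was not tested.

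Members were expressed within a moderate range in every group. Divided by transcript length, so that genes can be compared, their level had a median of 47.1 CPM per kilobase over all libraries and ran from 3.83 to 156 CPM per kilobase. By the mean of the 4 groups, MRPL12, the stalk protein that also binds mitochondrial RNA polymerase, stood at 156, MRPL33 at 151 and MRPS34 at 149.9 CPM per kilobase. Which gene was highest differed between groups. It was MRPL33 at 184 CPM per kilobase in A375 resistant and 191 in A375 sensitive cells, MRPL37 at 146 in SKMel28 resistant and MRPL12 at 165 in SKMel28 sensitive cells. MRPL42 was the lowest in every group, with a mean of 3.83 CPM per kilobase that rests on an annotated transcript of 15582 bases. Next to it stood MRPS33 in both A375 groups and MRPL50 in both SKMel28 groups, with means over the 4 groups of 11.03 and 9.91 CPM per kilobase.

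**Figure D1:**
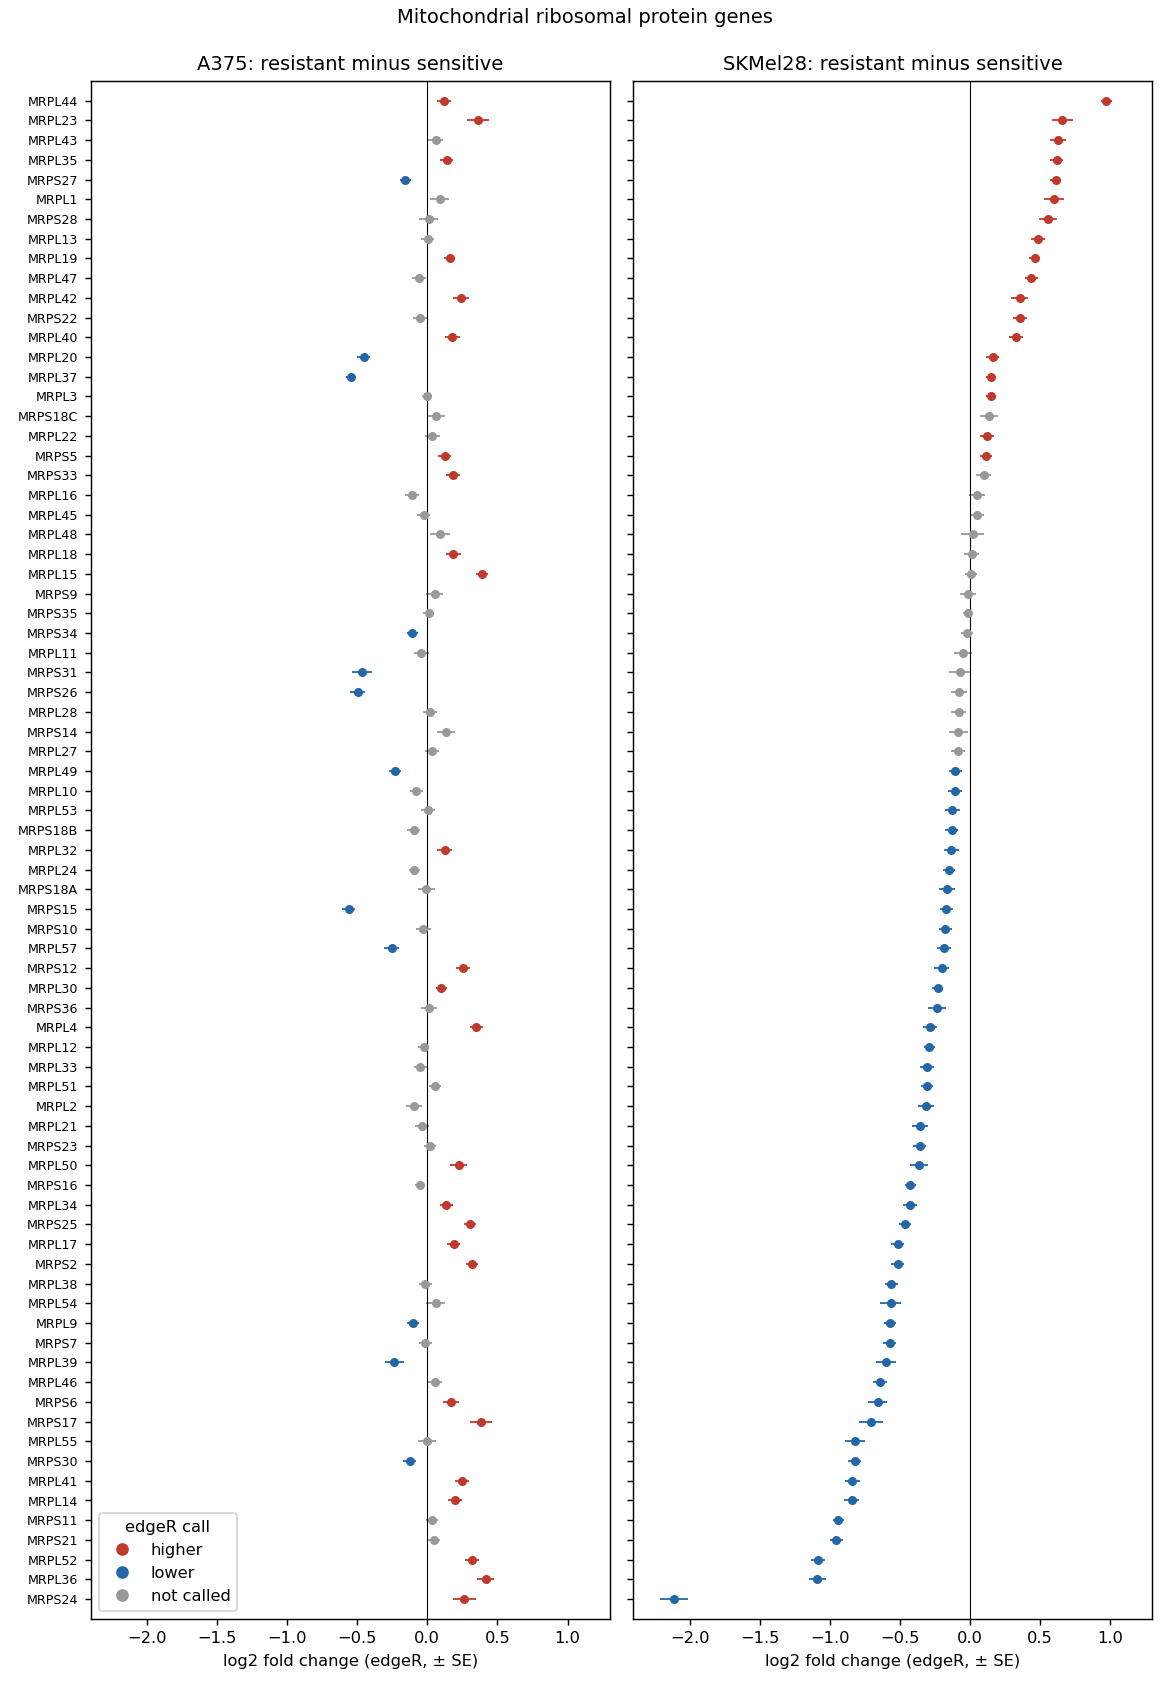
Log2 fold change, resistant minus sensitive (x axis), of each of the 77 members (rows, ordered by the change in SKMel28), with bars for ± 1 standard error of the edgeR fit; colours give the call at an adjusted p below 0.05. A375 changes run from -0.56 to 0.42, and SKMel28 changes from -2.11 to 0.97.

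In resistant A375 cells the members changed little. Of the 77, 26 were higher and 12 lower than in sensitive A375 cells, and 39 were not called. Across all genes tested, 25% were called higher and 26.3% lower, against 33.8% and 15.6% of the members. The median member change was 0.03, against 0.00 for all genes, and the whole range was -0.56 to 0.42. The median moved to 0.09 without the third A375 resistant library. Among genes averaging 10 CPM or more, a closer match for members in level, 30.1% were higher and 29.2% lower.

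In resistant SKMel28 cells more members were called than in A375, mostly downward, and more of all genes were called too. There 18 were higher and 43 lower than in sensitive SKMel28 cells, and 16 were not called. That is 23.4% and 55.8% of the members, beside 34.2% of all genes called higher and 35.8% called lower. Among genes averaging 10 CPM or more, 40.2% were higher and 39.7% lower. The median member change was -0.13, against -0.01 for all genes, and changes ran from -2.11 to 0.97. In these libraries mitochondrially encoded mRNAs took 6.74% to 7.06% of gene reads in resistant cells, against 4.32% to 4.58% in sensitive cells, and reads that aligned to more than 1 place were 2.09% to 2.44% of counted reads, against 4.004% to 4.468%. The part of these differences in the members' changes was not tested.

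By subunit, the MRPL genes of SKMel28 split into 14 higher and 26 lower, and MRPS genes into 4 higher and 17 lower. That is 29.2% and 54.2% of MRPL genes and 13.8% and 58.6% of MRPS genes, beside 34.2% and 35.8% of all genes. Summed over the MRPS genes, the level was 1816, 1835 and 1895 CPM in resistant SKMel28 libraries, against 2147, 2190 and 2209 CPM in sensitive ones, with no overlap. For the MRPL genes the sum was 3318, 3391 and 3555 CPM in resistant libraries, against 3536, 3637 and 3632 CPM in sensitive ones, and here the groups overlapped. The ratio of the MRPL sum to the MRPS sum was 1.85 ± 0.02 in resistant and 1.65 ± 0.01 in sensitive SKMel28 cells. In A375 the ratio was 1.87 ± 0.01 in resistant and 1.82 ± 0.01 in sensitive cells, and the sum over all members was 5539 ± 124 CPM and 5500 ± 19.4 CPM (SD, n = 3 each). A375 MRPL genes counted 18 higher and 6 lower, and MRPS genes 8 higher and 6 lower. That is 37.5% and 12.5% of MRPL genes and 27.6% and 20.7% of MRPS genes, beside 25% and 26.3% of all genes.

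**Figure D2:**
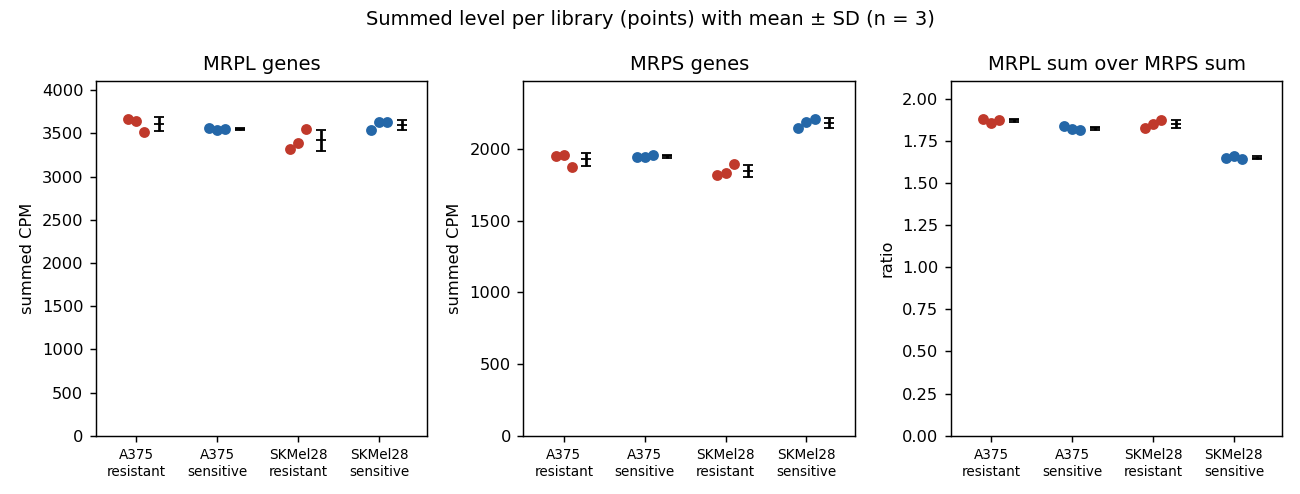
Summed CPM of the 48 MRPL genes (left) and the 29 MRPS genes (middle), and the ratio of the sums (right, no unit), in each library (points; red resistant, blue sensitive), with the mean ± SD of 3 libraries in black. The MRPS sum of resistant SKMel28 cells, 1816 to 1895 CPM, lies below that of sensitive SKMel28 cells, 2147 to 2209 CPM.

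The promoters of 4 members are shown because these genes had the largest rise or fall of each line among those whose promoter held a motif searched for. Each is 300 bases from RefSeq (GRCh38.p14), 250 before and 50 from the start site on, read 5′ to 3′ on the gene's strand, with the motif match in capitals. MRPL36 (chr5:1799788-1800087, minus strand) rose most in A375 and holds a YY1 match. MRPS26 (chr20:3045802-3046101, plus strand) is shown for a fall in A375 and MRPL43 (chr10:100987448-100987747, minus strand) for a rise in SKMel28, both with an ETS match. MRPS24 (chr7:43869468-43869767, minus strand) fell most in SKMel28 and holds a YY1 match just inside the transcript.
MRPL36: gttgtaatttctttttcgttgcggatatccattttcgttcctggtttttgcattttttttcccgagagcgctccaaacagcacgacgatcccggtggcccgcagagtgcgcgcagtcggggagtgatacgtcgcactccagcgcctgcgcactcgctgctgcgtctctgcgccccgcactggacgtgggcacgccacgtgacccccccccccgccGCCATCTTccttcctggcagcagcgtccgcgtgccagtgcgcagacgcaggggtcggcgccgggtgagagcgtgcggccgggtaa
MRPS26: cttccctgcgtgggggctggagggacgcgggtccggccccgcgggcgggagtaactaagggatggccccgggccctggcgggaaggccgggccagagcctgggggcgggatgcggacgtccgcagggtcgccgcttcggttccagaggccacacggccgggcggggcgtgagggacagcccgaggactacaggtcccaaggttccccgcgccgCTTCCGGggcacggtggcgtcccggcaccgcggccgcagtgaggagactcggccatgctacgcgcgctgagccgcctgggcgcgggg
MRPL43: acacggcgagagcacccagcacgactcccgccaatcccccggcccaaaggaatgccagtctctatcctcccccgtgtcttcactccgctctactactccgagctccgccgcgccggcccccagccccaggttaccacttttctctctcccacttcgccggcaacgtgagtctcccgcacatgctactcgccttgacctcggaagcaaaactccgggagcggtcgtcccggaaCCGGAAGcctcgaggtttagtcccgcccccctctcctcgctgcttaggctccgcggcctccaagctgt
MRPS24: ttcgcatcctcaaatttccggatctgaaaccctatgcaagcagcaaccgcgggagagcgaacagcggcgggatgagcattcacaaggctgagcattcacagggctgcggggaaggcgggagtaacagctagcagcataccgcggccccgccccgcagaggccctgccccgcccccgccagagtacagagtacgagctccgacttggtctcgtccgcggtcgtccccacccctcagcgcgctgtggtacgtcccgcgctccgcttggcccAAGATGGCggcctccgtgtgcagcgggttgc
Counted from 0 at the start site, these matches begin at -35 in MRPL36, -37 in MRPS26, -18 in MRPL43 and 19 in MRPS24.

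NRF1, the ETS factor GABP and YY1 are textbook activators of nuclear genes for mitochondrial proteins. Their core letters (GCGCATGC for NRF1, CCGGAAG for ETS and AAGATGGC for YY1) were searched on both strands in the 84 promoters that RefSeq lists for 68 members; the other 9 members had no entry. The ETS core was in 38.1% of the members' promoters and in 10.3% of all 35116 promoters. YY1 letters were in 27.4% of the members' promoters and 2.89% of all, and NRF1 letters in 7.14% and 3.05%. Counted by gene, 43 of the 68 members held at least 1 of the 3. In SKMel28 these were 9 of 14 members that were higher, 23 of 39 that were lower and 11 of 15 not called, and in A375 12 of 23, 7 of 12 and 24 of 33. The motifs differed when counted singly. In SKMel28, YY1 letters were in 5 of the 14 higher, 15 of the 39 lower and 1 of the 15 uncalled members, and the ETS core in 6, 13 and 10. In A375, YY1 letters were in 7 of the 23 higher, 4 of the 12 lower and 10 of the 33 uncalled members, and the ETS core in 6, 4 and 19. NRF1 letters were in 1, 4 and 1 members in SKMel28 and in 3, 0 and 3 in A375. None of these splits was tested. A match is a run of letters and not a shown binding site.

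The 6 largest falls in A375 were the 6 members on chromosome arms 1p, 13q and 20p. These arms were singled out because an earlier look at the same data had found most of their genes lower in resistant A375 cells. MRPS15, the homologue of bacterial S15 (chr1:36455718-36464437), had 57.9, 55.9 and 55.4 CPM in resistant A375 libraries, against 87.4, 78.5 and 83.7 CPM in sensitive ones. Its groups were well apart and the change was -0.56 ± 0.05 (adjusted p = 1.21e-13). MRPL37, a protein added in the mitochondrial particle (chr1:54184041-54225464), had 82.1, 83.8 and 80.3 CPM, against 121.6, 115.5 and 121.5 CPM, a change of -0.54 ± 0.04 (adjusted p = 2.11e-16). MRPL20, a homologue of bacterial L20 at the tip of the arm (chr1:1401908-1407313), had 90.8, 89.3 and 89.1 CPM, against 124.4, 120.1 and 124.2 CPM, a change of -0.45 ± 0.05 (adjusted p = 1.69e-11). All 3 members on 1p therefore stood about as far down as the arm itself, whose other 656 genes had a median change of -0.53.

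On 20p, MRPS26 (chr20:3045945-3048254), a small-subunit protein with no bacterial counterpart, had 82.5, 82.4 and 77.5 CPM in resistant A375 libraries, against 107.7, 115.7 and 118.6 CPM in sensitive ones. Its change of -0.50 ± 0.05 (adjusted p = 8.83e-11) lay beside an arm median of -0.47 over 102 other genes. On 13q, MRPS31 (chr13:40729135-40771173) had 20.8, 20.7 and 20.4 CPM, against 28.1, 28.5 and 28.9 CPM, a change of -0.47 ± 0.07 (adjusted p = 2.48e-07). MRPL57 on the same arm (chr13:21176645-21179084) fell less, with 50.3, 49.6 and 47.5 CPM, against 59.2, 59.4 and 57.4 CPM, a change of -0.25 ± 0.05 (adjusted p = 3.72e-05). The other 206 genes of 13q had a median of -0.43, so MRPL57 stood 0.18 above its arm, while MRPS31 stood at -0.03 from it. Of the 1199 other tested genes on these 3 arms, 865 were lower and 75 higher in resistant A375 cells. What part of the members' falls goes with the arm was not tested.

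Away from those arms, 26 of 71 members (36.6%) were higher and 6 (8.45%) lower in A375, beside 25% and 26.3% of all genes tested. Those arms were picked as lower in these same data, so leaving them out takes away falls by design. The largest fall elsewhere was that of MRPL39 at -0.23 ± 0.07 (adjusted p = 0.00336), which was not called without the third A375 resistant library. In SKMel28 the 6 members on 1p, 13q and 20p had no common direction: MRPL20 and MRPL37 were higher, MRPS15 and MRPL57 lower, and MRPS26 and MRPS31 were not called. The arms' other genes had medians of 0.01 on 1p, 0.03 on 13q and 0.01 on 20p in that line.

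**Figure D3:**
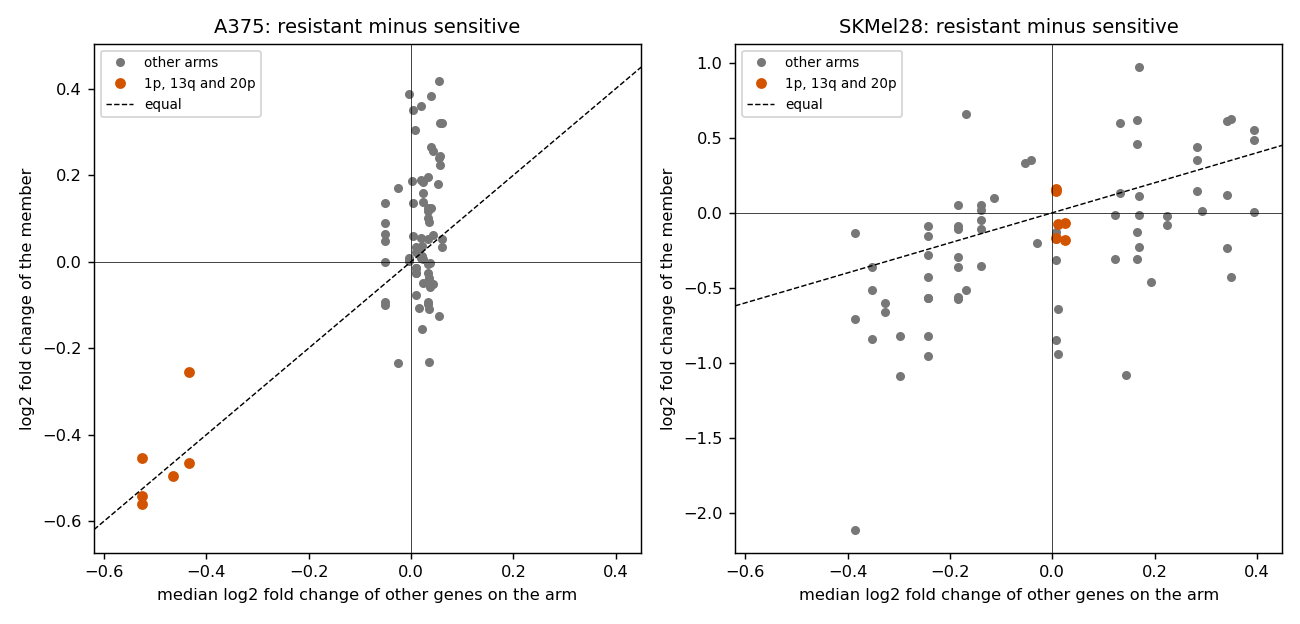
Log2 fold change of each member (y axis) against the median log2 fold change of the other genes on its chromosome arm (x axis), in A375 (left) and SKMel28 (right), resistant minus sensitive; the y axes differ in scale, and the dashed line marks equal values. In A375 the 6 members on 1p, 13q and 20p (orange) sit between -0.56 and -0.25 with arm medians from -0.53 to -0.43, and the lowest arm median of the other members is -0.05.

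The rises in A375 were smaller than 0.5 on the log2 scale. MRPL36, the homologue of the very small bacterial protein L36, had 40.5, 43.3 and 42.0 CPM in resistant A375 libraries, against 31.1, 30.4 and 32.8 CPM in sensitive ones, a change of 0.42 ± 0.06 (adjusted p = 1.48e-07). MRPL15 had 100.8, 101.7 and 99.6 CPM, against 78.1, 76.7 and 75.9 CPM, a change of 0.39 ± 0.04 (adjusted p = 1.37e-10). MRPS17 had 32.6, 34.9 and 30.9 CPM, against 25.05, 24.7 and 25.7 CPM, a change of 0.38 ± 0.08 (adjusted p = 4.34e-05). For these 3 genes every resistant library was above every sensitive one. MRPL23, which lies at the polypeptide exit, followed at 0.36 ± 0.08 with 21.8 ± 2.06 CPM in resistant and 16.95 ± 1.08 CPM in sensitive cells. MRPL4 changed by 0.35 ± 0.05, with 135.1 ± 7.46 and 105.9 ± 4.95 CPM. MRPS2, the homologue of bacterial S2, changed by 0.32 ± 0.04, with 114 ± 5.10 and 91.4 ± 1.51 CPM (SD, n = 3 each; edgeR adjusted p from 1.75e-08 for MRPS2 to 0.000182 for MRPL23).

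In SKMel28 the largest change was that of MRPS24, the homologue of bacterial S3, which lines the path by which mRNA enters the small subunit. It had 5.65, 6.68 and 6.73 CPM in resistant SKMel28 libraries, against 24.2, 28.8 and 29.5 CPM in sensitive ones. Every resistant library was far below every sensitive one, and the change was -2.11 ± 0.10 (adjusted p = 7.59e-23). In A375 the same gene had 26.1, 23.9 and 21.4 CPM in resistant and 18.9, 18.9 and 21.7 CPM in sensitive libraries; the groups overlapped, the change was 0.26 ± 0.08 (adjusted p = 0.00789) and it was not called without the first A375 sensitive library (adjusted p = 0.0561). A read-through transcript that joins MRPS24 to its neighbour URGCP had 0 to 6 reads in any library, while URGCP itself had 1115 to 2104 reads. Reads on exons that the read-through shares with MRPS24 may have been assigned to neither. The low count therefore cannot show how much read-through RNA there was, and what such reads would add to MRPS24 was not measured.

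MRPL36 fell in SKMel28, with 25.1, 25.4 and 28.9 CPM in resistant libraries, against 52.96, 56.2 and 59.9 CPM in sensitive ones, a change of -1.09 ± 0.06 (adjusted p = 6.15e-20). MRPL52, a large-subunit protein without a bacterial counterpart, had 35.7, 38.1 and 38.4 CPM, against 76.1, 79.7 and 81.9 CPM, a change of -1.08 ± 0.05 (adjusted p = 1.01e-22). Both genes ran the other way in A375, where MRPL52 had 60.5 ± 1.49 CPM in resistant and 48.4 ± 1.88 CPM in sensitive cells. MRPS21, the homologue of bacterial S21, had 45.9, 44.5 and 47.3 CPM in resistant SKMel28 libraries, against 87.7, 86.2 and 92.9 CPM in sensitive ones, a change of -0.95 ± 0.05 (adjusted p = 1.61e-21). MRPS11, the homologue of bacterial S11 at the platform, had 86.0, 90.1 and 93.1 CPM, against 173.5, 173.8 and 168.8 CPM, a change of -0.94 ± 0.04 (adjusted p = 1.12e-23). Neither MRPS21 nor MRPS11 was called in A375, at 0.05 ± 0.05 and 0.04 ± 0.04. MRPL14 changed by -0.85 ± 0.05 in SKMel28, with 31.8 ± 0.99 CPM in resistant and 57.1 ± 0.69 CPM in sensitive cells, while MRPL41 and MRPS30, both also studied in cell death, changed by -0.84 ± 0.05 and -0.82 ± 0.05.

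Of the SKMel28 rises the largest was MRPL44, a large-subunit protein with an RNase III-like fold whose mutations cause a cardiomyopathy. It had 180.8, 178.1 and 178.9 CPM in resistant SKMel28 libraries, against 91.8, 90.4 and 92.2 CPM in sensitive ones, a change of 0.97 ± 0.04 (adjusted p = 2.01e-24). The libraries of each group lay very close together and the groups were far apart. In A375 the gene was low, at 30.5 ± 0.50 CPM in resistant and 28.2 ± 1.16 CPM in sensitive cells, and its change of 0.12 ± 0.05 (adjusted p = 0.0434) lost its call in 6 of 18 alternatives. MRPL23 had 35.8, 41.2 and 41.6 CPM in resistant SKMel28 libraries, against 22.9, 26.8 and 25.5 CPM in sensitive ones, a change of 0.66 ± 0.07 (adjusted p = 1.71e-10). MRPS27, a pentatricopeptide-repeat protein, had 130.8, 127.3 and 131.0 CPM, against 84.0, 83.0 and 87.9 CPM, a change of 0.61 ± 0.04 (adjusted p = 1.32e-17). Groups did not overlap for either gene. MRPL43 at 0.62 ± 0.06, MRPL35 at 0.62 ± 0.04 and MRPL1 at 0.60 ± 0.07 completed the 6 largest rises.

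**Figure D4:**
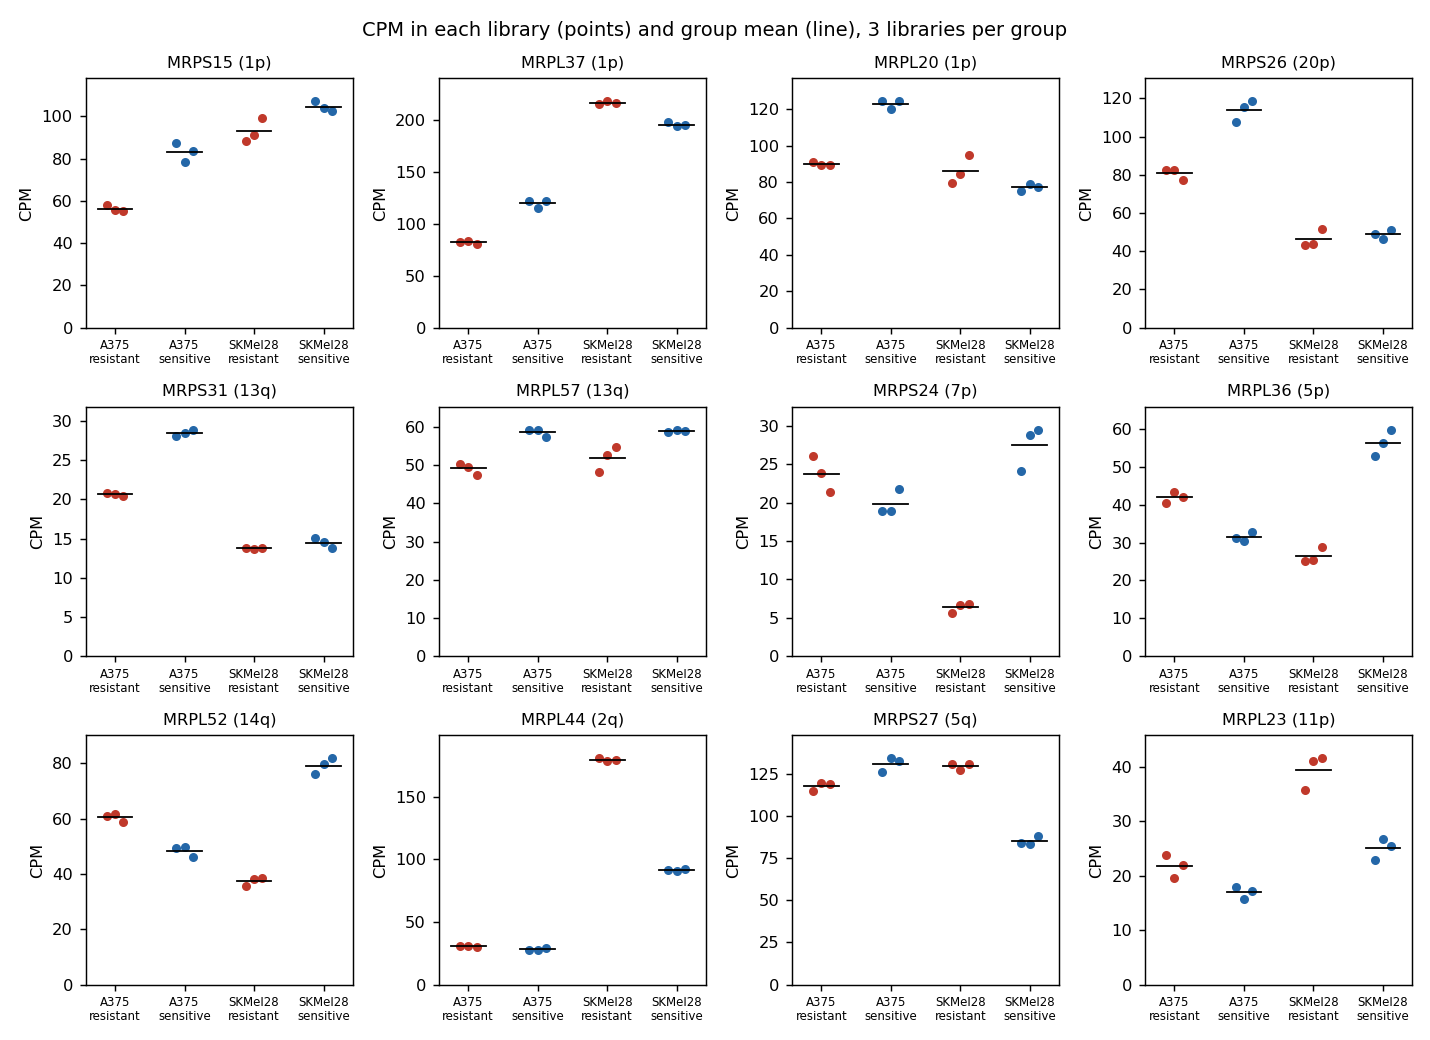
CPM (y axis, from 0) of 12 members in each of the 12 libraries (points; red resistant, blue sensitive), with a line at the mean of each group of 3 and the chromosome arm in the panel title. The first 6 panels are the members on 1p, 20p and 13q, lower in resistant than in sensitive A375 cells, and MRPS24 in resistant SKMel28 cells lies between 5.65 and 6.73 CPM.

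The change of 54 of the 77 members differed between the lines by the test of the difference itself, A375 change minus SKMel28 change. It was higher for 37 members and lower for 17, beside 31.4% of all genes called higher and 32.4% called lower in that test. The median difference was 0.15. The largest positive ones were MRPS24 at 2.38 ± 0.13, MRPL36 at 1.51 ± 0.09, MRPL52 at 1.40 ± 0.07 and MRPS17 at 1.09 ± 0.11. The largest negative ones were MRPL44 at -0.85 ± 0.06, MRPS27 at -0.76 ± 0.06, MRPL37 at -0.69 ± 0.05 and MRPL20 at -0.62 ± 0.07. For these 8 genes the adjusted p of the difference ran from 3.04e-21 for MRPL52 to 4.56e-11 for MRPL20.

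Set side by side, 16 members were higher in resistant A375 and lower in resistant SKMel28 cells. The difference was called for each of them, which opposite calls make likely. How many of all genes fell in this or the following classes was not counted. Singly, 25% of all genes were higher and 26.3% lower in A375, and 34.2% and 35.8% in SKMel28. The 16 members include MRPL4, MRPL14, MRPL17, MRPL36, MRPL41, MRPL52, MRPS2, MRPS12, MRPS17, MRPS24 and MRPS25. In 11 of the 16 both calls held under all 18 alternatives, while MRPL30, MRPL32, MRPL34, MRPS6 and MRPS24 lost at least 1. The opposite pattern held for 3 members, MRPL20, MRPL37 and MRPS27, and MRPL20 lost its SKMel28 call without the third SKMel28 resistant library. Higher in both lines were 7 members, MRPL19, MRPL23, MRPL35, MRPL40, MRPL42, MRPL44 and MRPS5, by 0.12 to 0.36 in A375 and by 0.11 to 0.97 in SKMel28. Of these, MRPL35, MRPL44 and MRPS5 lost their A375 call in 1, 6 and 3 alternatives, and MRPS5 its SKMel28 call in 2. Lower in both were 6 members, of which only MRPL57 and MRPS15 were so under all 18 alternatives. MRPL9, MRPS30 and MRPL39 lost their A375 call in 10, 9 and 1 of them, and MRPL49 its SKMel28 call in 12. In neither line were 10 members called, among them MRPL11 and MRPS35. Across the 77 members the changes in the 2 lines had a Pearson r of -0.18 and a Spearman rho of -0.14, as a description over genes that share their libraries.

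**Figure D5:**
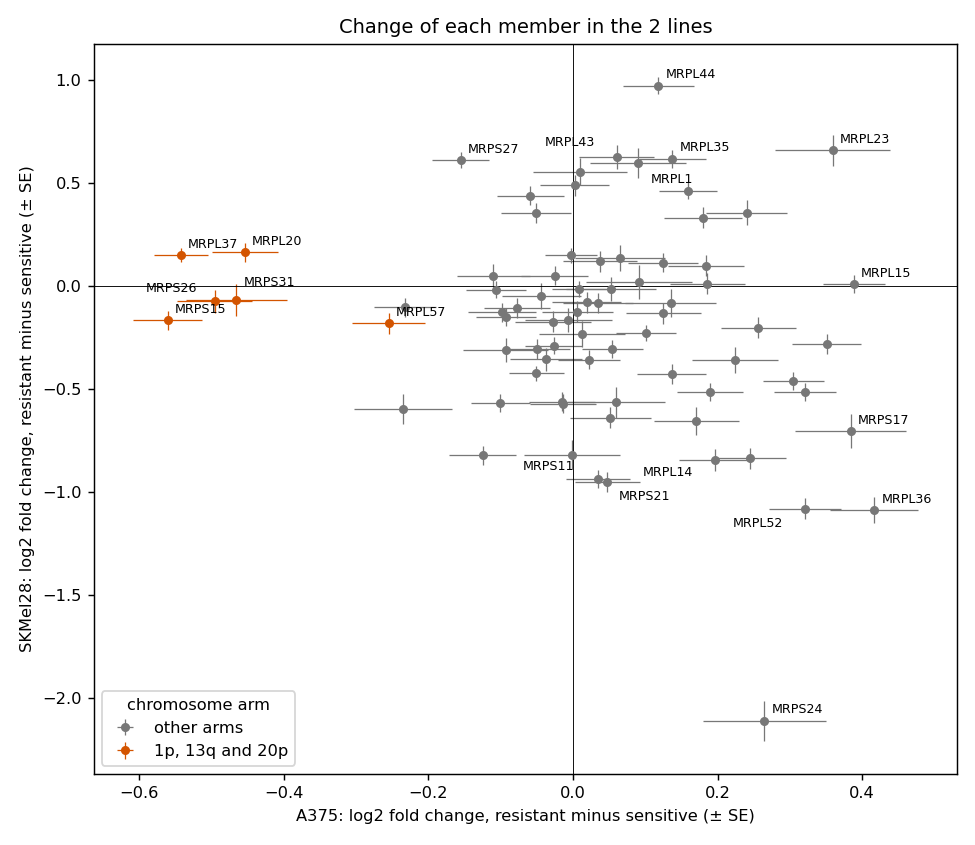
Log2 fold change of each member in SKMel28 (y axis) against that in A375 (x axis), resistant minus sensitive, with bars for ± 1 standard error; orange marks members on 1p, 13q and 20p. The axes differ in scale, and 16 members called higher in A375 and lower in SKMel28 lie at the lower right, from MRPL32 near the centre to MRPS24 at 0.26 and -2.11.

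Members were also set beside the other genes of their chromosome arm. In SKMel28 the member's change and the median of the other genes on its arm had r = 0.56 and rho = 0.57 over 77 members, and 38 of 77 members lay within 0.25 of that median. In A375 r was 0.72 and rho 0.34, which became 0.20 and 0.16 over the 71 members off 1p, 13q and 20p, and 68 of 77 lay within 0.25. In SKMel28 all 5 members on 6p were lower although the arm median was 0.01, as were all 3 on 7p (arm median -0.39), all 3 on 9q (-0.35) and all 3 on 19p (-0.24). All 3 members on 3q, MRPL3, MRPL47 and MRPS22, were higher, with an arm median of 0.28. These arms were picked for a single direction, and 1p, 2p, 2q, 5q, 10q and 11p held members called both ways. In SKMel28, 23.4% of all members were higher and 55.8% lower, beside 34.2% and 35.8% of all genes. On 6p, MRPS18A and MRPS18B each lost their call in 2 of 18 alternatives. MRPS24 and MRPL52 stood far from their arms in SKMel28, at -1.73 and -1.23 from the medians of 7p and 14q, and MRPL23 stood 0.83 above that of 11p.

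Several members share a start region with a gene read in the other direction. In 11 such pairs, within 1000 bases and with the partner at 10 CPM or more, both genes were called in SKMel28 in 8 and moved the same way in 7, in a line where 34.2% of all genes were called higher and 35.8% lower. Distances are between gene boundaries in GENCODE 29. By these, MRPL36 lies 34 bases from NDUFS6, a complex I subunit; the RefSeq start of the MRPL36 promoter printed above lies further inside the gene. NDUFS6 had 84.7 ± 6.37 CPM in resistant and 219.1 ± 12.8 CPM in sensitive SKMel28 cells, a change of -1.37 ± 0.05. MRPL46 and MRPS11 form a pair of 2 members, 34 bases apart, with changes of -0.64 ± 0.05 and -0.94 ± 0.04. MRPL47 and NDUFB5 rose together, by 0.44 ± 0.05 and 0.28 ± 0.04. The exception was MRPL30, which changed by -0.23 ± 0.04 while its partner MITD1 changed by 0.37 ± 0.10. In A375 both genes were called in 3 pairs, and 1 moved the same way, MRPL57 with SKA3.

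By position in the ribosome, no group of genes had every member called in 1 direction in either line. Roles were assigned from textbook knowledge after values had been seen. Of the 3 stalk genes, none was called in A375, and in SKMel28 MRPL12 fell to 138.9 ± 7.55 CPM in resistant cells, against 170.0 ± 6.83 CPM in sensitive cells, a change of -0.29 ± 0.04. MRPL10, which carries MRPL12, changed by -0.11 ± 0.05 (adjusted p = 0.0415), a call lost in 12 of 18 alternatives, and MRPL11 by -0.05 ± 0.06, which was not called. Around the peptidyl transferase centre, where peptide bonds form, MRPL4 was the only one of 5 genes called in A375; in SKMel28 MRPL3 changed by 0.15 ± 0.04, MRPL2 and MRPL4 were lower, and 2 were not called. Of 6 genes at the exit tunnel, 2 were higher in A375, and in SKMel28 3 were higher and 2 lower, with MRPL17 at -0.52 ± 0.04. Beside the counts for stalk, peptidyl transferase and exit tunnel genes stand those of all genes. These were 25% higher and 26.3% lower in A375, and 34.2% and 35.8% in SKMel28.

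Of 6 genes for mRNA entrance and decoding, 4 were higher and 0 lower in A375, while 1 was higher and 4 lower in SKMel28, and for 4 the difference between lines was called. Of all genes, 25% were higher and 26.3% lower in A375, and 34.2% and 35.8% in SKMel28. MRPS12, the homologue of the decoding protein S12, had 85.8 ± 3.29 CPM in resistant and 71.8 ± 2.86 CPM in sensitive A375 cells, a change of 0.26 ± 0.05. In SKMel28 it had 61.4 ± 1.59 and 70.8 ± 6.88 CPM, the groups overlapped, and the change was -0.20 ± 0.05 (adjusted p = 0.000757). The 3 paralogues of bacterial S18 occupy different sites in the particle, MRPS18A in the large subunit. None was called in A375, MRPS18A and MRPS18B changed by -0.17 ± 0.06 and -0.13 ± 0.05 in SKMel28, and MRPS18C was not called there at 0.13 ± 0.06. Without the first SKMel28 resistant library neither MRPS18A nor MRPS18B was called (edgeR adjusted p = 0.0517 and 0.0535), nor without the third SKMel28 sensitive library (0.103 and 0.0659). Among proteins added in the mitochondrial particle, 17 large-subunit genes split 6 higher and 4 lower in A375 and 5 and 11 in SKMel28, and 9 small-subunit genes split 2 and 4, and 2 and 2. MRPS16 and MRPS22, disease genes of the small subunit, changed by -0.43 ± 0.04 and 0.35 ± 0.05 in SKMel28, and neither was called in A375.

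Between sensitive cells of the 2 lines, 32 members were higher and 30 lower in A375 than in SKMel28, beside 42.4% of all genes higher and 40.5% lower. Differences reached over 1 on the log2 scale in both directions. MRPL11 had 86.7 ± 4.81 CPM in A375 sensitive and 37.0 ± 2.32 CPM in SKMel28 sensitive cells, a log2 difference of 1.23 ± 0.06, and MRPS26 had 114 ± 5.63 and 48.9 ± 2.37 CPM, a difference of 1.22 ± 0.05. At the other end MRPL44 differed by -1.70 ± 0.05 and MRPS11 by -1.59 ± 0.04, with 57.1 ± 1.77 CPM in A375 and 172.1 ± 2.81 CPM in SKMel28. The median over members was -0.01.

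The remaining proteins of mitochondrial translation were read from lists drawn up with results of these data known. Of 7 mitoribosome proteins named otherwise, 3 were higher and 2 lower in A375, and 2 and 3 in SKMel28. All genes tested, for this and the following lists, were 25% higher and 26.3% lower in A375, and 34.2% and 35.8% in SKMel28. AURKAIP1, a small-subunit protein whose gene also lies on 1p, had 143.5 ± 4.81 CPM in resistant and 206.9 ± 2.47 CPM in sensitive A375 cells, a change of -0.53 ± 0.05. DAP3, the GTP-binding protein of the small subunit, had 87.1 ± 1.57 CPM in resistant and 156.2 ± 2.15 CPM in sensitive SKMel28 cells, a change of -0.84 ± 0.04, and PTCD3 rose by 0.68 ± 0.04. Among 25 assembly factors, 7 were higher and 8 lower in A375 (28% and 32%) and 7 and 12 in SKMel28 (28% and 48%). FASTKD2, needed for maturation of the large-subunit RNA, had 187.4 ± 4.60 CPM in resistant and 77.6 ± 1.19 CPM in sensitive SKMel28 cells, a change of 1.27 ± 0.04. TFB1M, which methylates the small-subunit RNA, changed by -0.64 ± 0.08 in A375.

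Of 17 mitochondrial translation factors, 4 were higher and 2 lower in A375 (23.5% and 11.8%), and 7 and 5 in SKMel28 (41.2% and 29.4%). Beside these and the next lists stand 25% and 26.3% of all genes in A375, and 34.2% and 35.8% in SKMel28. The elongation factor TUFM rose by 0.44 ± 0.04 in SKMel28. Of 20 mitochondrial aminoacyl-tRNA synthetases and partners, 2 were higher and 7 lower in A375 (10% and 35%), and 8 and 5 in SKMel28 (40% and 25%). HARS2 was at -0.40 ± 0.05 in A375 and 0.66 ± 0.05 in SKMel28. Of 9 genes for mitochondrial transcription and DNA maintenance, 3 were higher and 2 lower in A375 (33.3% and 22.2%), and 1 and 7 in SKMel28 (11.1% and 77.8%). There POLG, the mitochondrial DNA polymerase, had 90.6 ± 3.15 CPM in resistant and 237.7 ± 9.03 CPM in sensitive cells, a change of -1.39 ± 0.04.

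The mRNAs that this ribosome translates were mostly higher in resistant cells of both lines. Of the 13 mitochondrially encoded mRNAs, 8 were higher and 1 lower in A375, with a median change of 0.16, where 25% of all genes were higher and 26.3% lower. In SKMel28, 11 were higher and 1 lower, with a median of 0.60, where 34.2% of all genes were higher and 35.8% lower. Nuclear genes for oxidative phosphorylation subunits counted 42 higher and 11 lower of 78 in A375, with a median of 0.11, and 14 and 51 in SKMel28, with a median of -0.35. Genes for cytosolic ribosomal proteins counted 7 higher and 24 lower of 83 in A375, with a median of -0.04, and 10 and 61 in SKMel28, with a median of -0.40. Of 9 nuclear regulators of mitochondrial genes, 3 were higher and 0 lower in A375, and 4 were higher and 4 lower in SKMel28. MYC changed by 0.85 ± 0.06 in A375 and by -0.51 ± 0.04 in SKMel28, and the receptor ESRRA by 0.22 ± 0.05 and -0.62 ± 0.05. NRF1 changed by -0.09 ± 0.08 in A375, not called, and by -0.29 ± 0.08 in SKMel28 (adjusted p = 0.00223). GABPA was called in neither line, at 0.04 ± 0.06 and -0.10 ± 0.06.

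Reads of neighbouring or copied genes could bear on many members, since strand was not used in counting and 33 of the 77 overlap another counted gene. MRPL23 has an antisense gene, counted at 0 to 2 reads. The pseudogene of MRPL42 had 0 to 2 reads, that of MRPL45 had 51 to 187 and that of MRPS31 had 59 to 150. Reads that align equally well to a member and its copy may be counted for neither. These counts therefore cannot show how far copies bear on the members. MRPL42 was higher in both lines, at 0.24 ± 0.06 and 0.35 ± 0.06, MRPL45 was called in neither, and MRPS31 is described above. MRPS6 shares its locus and strand with SLC5A3, so its changes of 0.17 ± 0.06 in A375 and -0.66 ± 0.07 in SKMel28 cannot be assigned to it with certainty. In all, 8 members overlap a gene on the same strand. Among them are MRPS24 with its read-through gene, MRPS16 with DNAJC9, MRPL28 with TMEM8A, MRPL53 with CCDC142 and MRPS5 with ZNF514. Another gene lies over part of 27 members on the opposite strand, including MRPL14, MRPL37, MRPL43, MRPS2, MRPS12, MRPS22, MRPS25 and MRPS27. The share of reads from these partners was not measured, so the values of all 33 are less certain.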

How the data were processed

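Poly(A)-selected RNA of 12 libraries in 4 groups was measured. The deposited values are counts of reads per gene symbol, 1 file per library, closing with htseq-count's lines for unassigned reads, which were kept out of library sizes (15.1% to 19.5% of counted reads). HISAT2, StringTie and GRCh38.p12 are named in the submitters' processing notes, while the deposited files are labelled as STAR output counted without strand, so the aligner is not settled. Members and lists were chosen with earlier results of these data known.

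Counts were filtered with filterByExpr (15506 genes left), scaled by TMM and fitted with edgeR 4.0.16 (R 4.3.3; robust quasi-likelihood, 4 group means, 8 residual degrees of freedom, biological coefficient of variation 4.20%). Tests were two-sided. DESeq2 1.42.0, other scalings, no filter, each line fitted alone, the replicate block and leaving out each library were alternatives. The test was checked on simulated counts for A375, in which all genes shared 1 spread, unlike real genes. It recovered 36 of 50 changes of 1.25-fold and 54 of 57 of 1.5-fold, with 12 false calls among 14773 genes. Replicates differed by more than sampling noise (chi-square over degrees of freedom 2.81 to 7.48).

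Members were named by rule: the 6 largest called rises and falls per line with at least 10 CPM, the 4 largest differences each way, the 3 highest and lowest levels per kilobase, 14 role genes, and members on 1p, 13q or 20p or with a pseudogene or antisense row; others, such as MRPL17, MRPL39 and MRPL46, were chosen after their values were seen. Positions and lengths came from GENCODE release 29 (GRCh38), in which 23913 symbols and all 77 members matched and 2586 symbols did not. Medians for chromosome arms left out genes under 2 CPM.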

Additional observations from a re-analysis of the deposited data

Results flagged for a closer look

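Of the 40 members named by rule, 30 changed with resistance by different amounts in the 2 lines, by edgeR's test of the difference itself (A375 change minus SKMel28 change, log2; Benjamini-Hochberg adjusted p from 3.04e-21 for MRPL52 to 0.0162 for MRPL23). Many of the 40 were named for large changes or differences in these same data, so a high count was built in. Of all genes tested, 31.4% were called higher and 32.4% lower in that test. For 17 of the 30 the A375 change was the higher one. Proteins with no bacterial counterpart gave MRPL52 1.40, MRPL41 1.08, MRPS30 0.70 and MRPL50 0.59. Homologues of bacterial large-subunit proteins gave MRPL36 1.51, MRPL14 1.04, MRPL4 0.63, MRPL15 0.38, MRPL12 0.26 and MRPL33 0.26. Homologues of bacterial small-subunit proteins gave MRPS24 2.38, MRPS17 1.09, MRPS21 1.00, MRPS11 0.97, MRPS2 0.84, MRPS12 0.46 and MRPS16 0.38.

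For the other 13 the SKMel28 change was the higher one. The members on 1p, 13q and 20p gave MRPL37 -0.69, MRPL20 -0.62, MRPS26 -0.42, MRPS31 -0.40 and MRPS15 -0.39. Elsewhere the difference was MRPL44 -0.85, MRPS27 -0.76, MRPL43 -0.56, MRPL1 -0.51, MRPL35 -0.48, MRPS22 -0.40, MRPL23 -0.30 and MRPL3 -0.15. The last 2 did not hold throughout. MRPL23's difference was not called when scaled by library size alone (adjusted p = 0.0589), nor without the second A375 resistant (0.111), the first A375 sensitive (0.0542) or the first SKMel28 sensitive library (0.051). MRPL3's was not called when scaled by library size alone (adjusted p = 0.12) or without the third A375 resistant library (0.0537). The other 28 kept their call under every alternative run. Groups of 3 libraries are too small for a test of single outlying libraries, and none was made.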

How the results depend on the processing

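The counts of members called kept within 1.5 times of their values under every other setting of normalization, test, filter, samples fitted and pairing. Leaving out the members on 1p, 13q and 20p, chosen after seeing the data, took the A375 count of lower members to 6. The median member change in A375 became 0.0703 with DESeq2's size factors and with DESeq2's Wald test. Leaving out each library in turn gave A375 medians of 0.0269 to 0.0939, the highest without the third A375 resistant library, and SKMel28 medians of -0.16 to -0.11. Over the same omissions A375 counted 20 to 29 higher and 8 to 14 lower, SKMel28 16 to 20 and 37 to 44, the difference 33 to 41 and 16 to 20, and the comparison of sensitive lines 30 to 32 both ways. Of the calls, 26 of 38 in A375 and 52 of 61 in SKMel28 were kept under all 18 alternatives, and none turned round; MRPL9, MRPS30 and MRPS34 in A375 and MRPL10 and MRPL49 in SKMel28 were lost most often. Scaling by library size alone moved the median of all genes between sensitive lines to 0.18 and gave 41 members higher and 27 lower; MRPL12, MRPL57 and MRPS2, not called there in the main comparison, then stood at 0.13, 0.14 and 0.14.

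Whether replicate numbers pair libraries is not settled. Same-number deviations had correlations from -0.0024 to 0.0301 in A375 and from 0.00767 to 0.0471 in SKMel28. Different-number deviations had correlations from -0.0221 to 0.0161 in A375 and from -0.0422 to 0.0135 in SKMel28. In SKMel28 each resistant library had its highest value with the sensitive library of the same number. All were near 0, and groups of 3 libraries cannot exclude pairing. With the replicate block, A375 counted 26 higher and 14 lower, SKMel28 18 and 43, the difference 37 and 18, and the sensitive lines 32 and 29. The 3 libraries per group, the unstated origin of replicates and the unstranded counting limit all results; the lowest count of a member was 184 reads.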
